A study of Homo sapiens with 30 samples.

Results

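Interferon-stimulated genes are the genes that cells switch on when interferon, a signal of virus infection, binds its receptors. A list of 45 of them was followed through prostate cancer cell lines in which the retinoblastoma gene RB1 was depleted or which were given the androgen DHT or a compound, GSK2879552, that blocks the histone demethylase LSD1 (gene KDM1A). A gene was a member when its symbol was one of these 45 names in all 4 count tables. All 45 were found, of 57773 genes in the tables. The rule uses names and no measured value, but the list was drawn up with earlier results of these data known.

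The cells came from 3 lines. VCaP cells, a prostate cancer line that responds to androgen, were transfected for 2 days with 20 nM of a control siRNA (3 libraries) or of an siRNA against RB1 (3 libraries). C4-2-tet-shRB cells, a derivative of LNCaP with a doxycycline-inducible hairpin against RB1, entered 2 experiments. In the first, 2 libraries each came from cells given DMSO alone and from cells given DMSO and doxycycline (0.05 µg/ml, 3 days). The same number came from cells given GSK2879552 at 10 µM for 24 h and from cells given doxycycline followed by GSK2879552. Below, DMSO libraries are those given DMSO alone, and the libraries with doxycycline but no GSK2879552 had DMSO as well. In the second, 1 library each came from cells without doxycycline or with it for 3 or 30 days, and each of these was given vehicle or 10 nM DHT for 24 h. LNCaP cells gave 1 library with vehicle and 1 after 1 µM GSK2879552 for 2 days. Each library of the DHT experiment and of LNCaP was deposited as 2 numbered replicates, whose descriptions give 1 library name and index and different sequencing lanes. Their counts differed by no more than counting error, and each pair was counted as 1 sample. Every VCaP library was transfected and no C4-2 or LNCaP library was, and the media also differed. The DHT experiment and LNCaP also had a total RNA kit, and VCaP and the first C4-2 experiment an mRNA kit. Line, transfection, medium and, where it differed, kit thus cannot be told apart in the levels below. The labels give VCaP cells 10% FBS, whereas the VCaP library names refer to charcoal-stripped serum. The first C4-2 experiment and LNCaP had 5% charcoal-stripped serum and the DHT experiment had 8% of it with 2% FBS. No group was given doxycycline without the RB1 hairpin, and 1 RB1 siRNA reagent was set against 1 control, so an effect of depletion and an effect of the reagent cannot be told apart. Nothing in the labels says that replicates were separate cultures, and p-values rest on the spread between the libraries as deposited, which may be technical.

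In the textbook pathway, RNA sensors such as RIG-I and MDA5 detect double-stranded RNA and lead to the release of interferon. Interferon receptors then act through the kinases JAK1 and TYK2 to assemble a complex with STAT2 and IRF9 that binds a short DNA element, the interferon-stimulated response element (ISRE), in front of the target genes. The products block translation of viral RNA, degrade RNA, hold virus at membranes or tag proteins with the ubiquitin-like ISG15, and several of them are sensors and transcription factors of the same pathway. In tumour cells a standing level of these genes is often seen without added interferon.

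Library totals were 4311455 to 7107036 counts in VCaP, 14515932 to 22326960 in the first C4-2 experiment, 14898454 to 16856486 in the DHT experiment and 13085157 to 14036346 in LNCaP. Replicate libraries differed by more than counting error, least in VCaP (chi-square ratio over genes 1.13 to 1.39, where 1 is counting error alone) and most in the first C4-2 experiment (1.61 to 7.88). Values below are counts-per-million scaled by TMM factors within each table (CPM). RB1 was at 56.5, 59.96 and 63.9 CPM with the control siRNA and 5.35, 6.74 and 7.41 CPM with the RB1 siRNA. In the first C4-2 experiment RB1 was at 23.4 and 26.1 CPM without doxycycline and 4.64 and 6.24 CPM with it. With GSK2879552 it was at 32.7 and 22.1 CPM, and with both agents at 5.84 and 6.74 CPM. In the DHT experiment RB1 was at 48.1 and 51.1 CPM without doxycycline and at 6.25 to 10.0 CPM with it. All 10 luminal prostate markers, among them KLK3, had counts in every library, and 10 immune cell markers summed to 0.719 to 3.06 CPM per library. In bulk RNA, fewer cells with a transcript and less transcript per cell cannot be told apart.

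The promoters of the members hold the letters of the ISRE more often than promoters at large. RefSeq promoters (build GRCh38.p14, 250 bases before to 50 after each start) were matched for 36 members. The ISRE was searched on both strands as GAAA, any 2 bases and GAAA, and the gamma-activated sequence (GAS), a second interferon element, as TTCNNNGAA, which reads the same on both strands. Matches that overlapped each other or the other motif were kept. An ISRE match was present in 22 of the 36 member promoters (61.1%) and in 996 of 27305 promoters in all (3.65%). A GAS match was present in 10 of 36 (27.8%) and in 2152 of 27305 (7.88%). A match is a stretch of letters and was not tested as a binding site. GAAA runs with a shorter or longer gap between them were not counted. The 250 bases in front of IFI27, the member with the largest response to RB1 siRNA in VCaP, and of IFI6, the member called with GSK2879552 both with and without doxycycline, are given 5′ to 3′ with ISRE matches in capitals. For 6 further members whose values are described below, the bases around the match nearest to the start are shown.
IFI27: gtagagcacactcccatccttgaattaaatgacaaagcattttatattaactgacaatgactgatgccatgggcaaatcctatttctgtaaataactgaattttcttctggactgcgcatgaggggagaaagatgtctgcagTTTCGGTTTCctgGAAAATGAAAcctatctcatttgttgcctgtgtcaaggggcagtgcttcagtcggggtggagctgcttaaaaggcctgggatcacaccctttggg
IFI6: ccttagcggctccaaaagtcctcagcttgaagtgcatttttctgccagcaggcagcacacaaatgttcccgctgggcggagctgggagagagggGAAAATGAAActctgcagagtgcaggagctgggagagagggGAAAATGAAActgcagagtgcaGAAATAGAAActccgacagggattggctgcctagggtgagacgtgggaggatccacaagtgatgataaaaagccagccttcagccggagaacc
ISG15: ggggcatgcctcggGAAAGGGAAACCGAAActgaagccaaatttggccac
IFIT1: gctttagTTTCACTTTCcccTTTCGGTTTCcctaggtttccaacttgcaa
BST2: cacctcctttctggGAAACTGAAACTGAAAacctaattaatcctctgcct
PARP14: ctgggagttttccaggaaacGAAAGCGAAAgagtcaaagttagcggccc
SAMD9: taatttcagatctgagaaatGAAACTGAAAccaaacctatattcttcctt
ISG20: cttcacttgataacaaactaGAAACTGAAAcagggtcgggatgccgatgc
The IFI27 stretch is chr14:94110486-94110735 (plus strand) and holds 2 matches on opposite strands. The IFI6 stretch is chr1:27672193-27672442 (minus strand) and holds 3 matches, of which 2 lie in a repeated run of letters. The windows are chr1:1013370-1013419 (plus strand) for ISG15, chr10:89392500-89392549 (plus strand) for IFIT1, chr19:17405725-17405774 (minus strand) for BST2, chr3:122680790-122680838 (plus strand) for PARP14, chr7:93118086-93118135 (minus strand) for SAMD9 and chr15:88638927-88638976 (plus strand) for ISG20. In ISG15 and BST2 the capitals are overlapping matches. Many members are neighbours on their chromosome. With no other protein-coding gene between them in the RefSeq table there were 11 such pairs, which take in 20 members: the OAS, IFIT, IFITM and MX genes, CMPK2 with RSAD2, IFI44 with IFI44L, PARP9 with DTX3L and SAMD9 with SAMD9L. Exons of CMPK2 and RSAD2, and of PARP9 and DTX3L, overlap on opposite strands in the GENCODE annotation. IFITM1 and IFITM2 exons overlap on the same strand, and the IFITM genes are near-identical copies. In all, 17 of the 45 members had exons that overlap another annotated gene on either strand. They include ISG15, MX1, OAS1, EIF2AK2, IRF1, IRF9, SP110, XAF1 and TRIM22. Because the strand setting of the authors' counting is not given, values of all these members are uncertain as to which gene a read came from.

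VCaP cells held most of the members at higher levels than C4-2 or LNCaP cells. The 45 members summed to 7263 to 7489 CPM in the 3 control libraries of VCaP. The sum was 545 to 571 CPM in C4-2-tet-shRB given DMSO, 506 CPM in the vehicle library without doxycycline of the DHT experiment and 493 CPM in LNCaP given vehicle. No test was made across tables, and the DHT experiment and LNCaP also differed from VCaP in the RNA kit. Of 43 members with at least 1 CPM in VCaP or C4-2, 30 were at least 10-fold higher in VCaP controls than in C4-2 given DMSO, where 7.36% of 17630 genes were. One member was at least 10-fold lower, where 5.38% of all genes were. The median ratio of the members was 22.4, and that of all genes was 0.935.

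IFI6, a mitochondrial protein that restrains cell death, had the highest level for its length in VCaP, at 2049 CPM per kilobase of exon. ISG15 followed with 580.6 and OAS3 with 120.3 on the same scale. In C4-2 given DMSO the order was ISG15 with 46.6, IFITM3 with 24.8 and IFI6 with 14.0. In LNCaP it was ISG15 with 53.6, STAT2 with 14.9 and IFITM3 with 12.7. ISG15 thus led per length in both LNCaP-derived lines, and IFI6 led in VCaP. In CPM, IFI6 was at 1835, 1786 and 1696 in VCaP controls, 12.3 and 12.01 in C4-2 and 8.92 in LNCaP, a ratio of 143 between VCaP and C4-2.

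Some members were all but silent in C4-2. SAMD9L, which restrains growth and translation, had 254 counts over the 3 VCaP controls and 0 counts over both C4-2 libraries, which is at least 189.7-fold higher in VCaP when 3 counts over the group are taken as the floor. IFI44L had 1760 counts in VCaP and 3 in C4-2. OAS2, one of the enzymes that make the 2-5A signal for RNA decay, had 568 and 2. MX2 had 75 and 3, and XAF1, a partner of cell death inhibitors, had 33 and 1. RSAD2 (viperin), which makes a chain-ending nucleotide, had 1152 and 7.

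The sensors and the signalling members differed less evenly. DDX58 (RIG-I) was at 196, 205 and 191 CPM in VCaP controls, 7.38 and 7.24 CPM in C4-2 and 4.53 CPM in LNCaP. IFIH1 (MDA5) was at 95.4, 89.2 and 93.7 CPM in VCaP controls, at 4.34 and 4.19 CPM in C4-2 and at 5.47 CPM in LNCaP. STAT2 was closer in all lines, with 129.7, 127 and 129.9 CPM in VCaP, 73.5 and 65.9 in C4-2 and 91.1 in LNCaP. For STAT2 the VCaP to C4-2 ratio was 1.81, against 26.4 for DDX58. Only ISG20, IFITM2 and IFI35 of the 43 members were lower in VCaP than in C4-2. IFITM2, which stops viruses at endosomes, had 3 counts in the VCaP controls and 404 in C4-2. ISG20, an RNA exonuclease, was at 5.72, 4.65 and 4.20 CPM in VCaP and 21.03 and 19.3 CPM in C4-2, and the groups did not overlap.

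**Figure D1:**
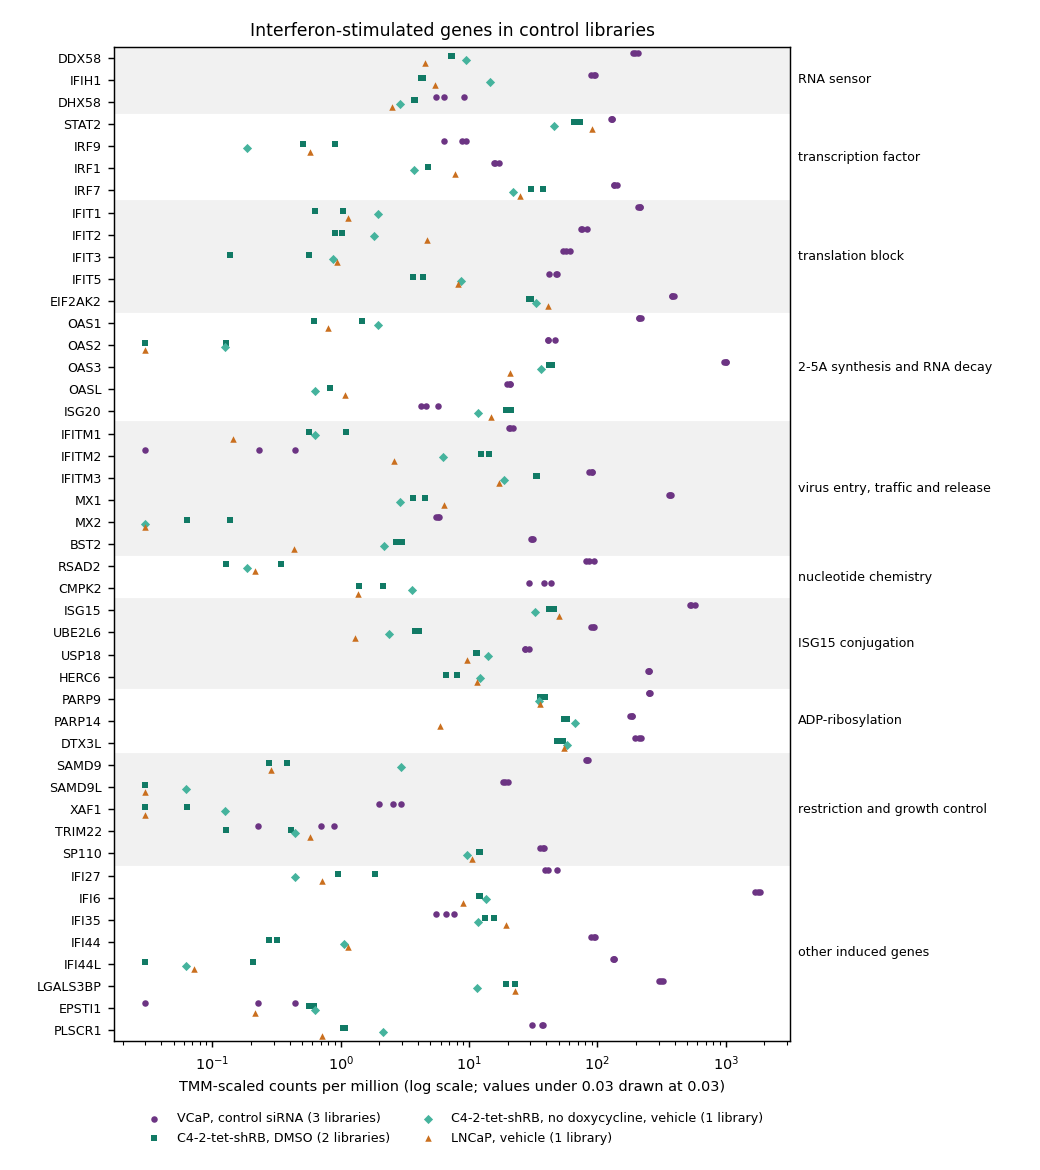
TMM-scaled CPM of each member (log scale) in every control library: 3 of VCaP with control siRNA, 2 of C4-2-tet-shRB with DMSO, 1 of C4-2-tet-shRB with vehicle in the DHT experiment and 1 of LNCaP. Most VCaP points sit far to the right of the others, whereas ISG20, IFITM2 and IFI35 sit to the left of both C4-2 DMSO points.

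Genes upstream of the members were read from a further list. JAK1, the kinase shared by the interferon receptors, was at 77.1, 80.6 and 80.7 CPM in VCaP controls, at 8.76 and 8.58 CPM in C4-2 and at 5.97 CPM in LNCaP. TYK2 stood the other way, at 59.7, 49.5 and 49.5 CPM in VCaP controls, at 90.97 and 85.2 CPM in C4-2 and at 84.2 CPM in LNCaP. The receptor chain IFNAR1 was at 219, 231 and 239.5 CPM in VCaP controls, at 50.3 and 51.5 CPM in C4-2 and at 54.8 CPM in LNCaP. Its partner IFNAR2 was at 17.2, 19.99 and 17.9 CPM in VCaP controls, at 7.38 and 7.05 CPM in C4-2 and at 7.34 CPM in LNCaP, so both chains were higher in VCaP. IRF3, which turns on interferon genes below the sensors, was at 54.4, 51.1 and 61.9 CPM in VCaP controls, at 84.3 and 73.8 CPM in C4-2 and at 58.3 CPM in LNCaP. The part of these differences in the members' levels was not tested.

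Most of the members rose by a small amount in VCaP after RB1 siRNA. Of 42 members that passed the count filter, 27 rose and 0 fell at an adjusted p under 0.05 (edgeR quasi-likelihood test, Benjamini-Hochberg over 14066 genes). Of all genes tested, 2.96% rose and 2.65% fell. The members' median log2 fold change was 0.28, and that of all genes was -0.00. By p-value before adjustment (under 0.05), 28 members were higher and 0 lower, where 8.77% of all genes were higher and 8.82% lower. DESeq2 called 22 members higher and 0 lower. In 29 of the 42 members every library with RB1 siRNA lay above every control library, where 10.7% of all genes did so, and in 0 members every library lay below, where 10.6% did. Summed over the members, controls had 7263 to 7489 CPM and RB1 siRNA libraries 8991 to 9161 CPM, with no overlap. IFITM2, TRIM22 and EPSTI1 had too few counts to be tested.

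Among the sensors, 2 of 3 rose. DDX58 was at 196, 205 and 191 CPM with the control siRNA and 209, 218 and 231 CPM with the RB1 siRNA, a log2 fold change of 0.15 ± 0.04 (SE). IFIH1 was at 95.4, 89.2 and 93.7 CPM with the control siRNA and 106, 108 and 110.2 CPM with the RB1 siRNA, which is 0.22 ± 0.05 on the log2 scale. Both groups stood apart for these genes by a narrow margin. The DDX58 call was lost without control library 1 or 3 or RB1 siRNA library 2 or 3 (0.11 to 0.15), and the IFIH1 call without control library 2 (0.19). Both were lost in DESeq2. DHX58 (LGP2), which modulates both sensors, was at 9.15, 5.58 and 6.41 CPM with the control siRNA and 6.47, 7.36 and 6.60 CPM with the RB1 siRNA, and these values overlapped.

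Of the transcription factors, 1 of 4 rose. IRF7, which amplifies interferon output, was at 142, 134 and 135 CPM with the control siRNA and 166, 166 and 165 CPM with the RB1 siRNA, a log2 fold change of 0.27 ± 0.05. STAT2 was at 129.7, 127 and 129.9 CPM with the control siRNA and 137, 141 and 129 CPM with the RB1 siRNA. IRF9, which gives its complex with STAT2 a hold on DNA, was at 6.40, 9.53 and 8.84 CPM with the control siRNA and 7.60, 7.68 and 5.64 CPM with the RB1 siRNA. Values of both overlapped between the groups. IRF1, a factor that also responds to interferon gamma, was at 17.2, 15.6 and 15.9 CPM with the control siRNA and 19.8, 18.6 and 20.6 CPM with the RB1 siRNA. Its groups did not overlap, but the adjusted p was 0.193 in edgeR's quasi-likelihood test.

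All 5 members that block translation rose. IFIT1, which holds back RNA with a foreign cap, was at 215, 208 and 213 CPM with the control siRNA and 266, 262 and 272 CPM with the RB1 siRNA (log2 fold change 0.33 ± 0.04). IFIT2 was at 74.3, 75.5 and 83.5 CPM with the control siRNA and 97.2, 101 and 101 CPM with the RB1 siRNA (0.36 ± 0.06). IFIT3, their partner, was at 61.1, 56.7 and 54.1 CPM with the control siRNA and 79.1, 75.7 and 75.4 CPM with the RB1 siRNA (0.42 ± 0.07). In each of these the lowest RB1 siRNA library exceeded the highest control. IFIT5 had a log2 fold change of 0.35 ± 0.08, which was lost without control library 1 (0.28). EIF2AK2 (PKR), the kinase that stops translation on double-stranded RNA, had the smallest change of the set, at 384, 392 and 382 CPM with the control siRNA and 414, 439 and 461 CPM with the RB1 siRNA (0.18 ± 0.04). IFIT2 shares exon sequence with LIPA on the other strand, so its counts may include that gene.

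The OAS enzymes, which make the 2-5A signal for RNA decay, rose in 3 of 4 cases. OAS2 was at 40.9, 41.4 and 46.6 CPM with the control siRNA and 66.3, 67.7 and 68.3 CPM with the RB1 siRNA, a log2 fold change of 0.65 ± 0.07. OAS1 was at 211, 218 and 211 CPM with the control siRNA and 254, 247 and 249 CPM with the RB1 siRNA (0.23 ± 0.04). OAS3 was at 999, 1010.0 and 969 CPM with the control siRNA and 1113, 1134 and 1102 CPM with the RB1 siRNA (0.17 ± 0.03). The neighbours OAS1, OAS3 and OAS2 thus moved in 1 direction by unequal amounts, with no overlap between groups in any of them. OASL, a relative without that enzyme activity, had a log2 fold change of 0.11 ± 0.11 and was not called, nor was the exonuclease ISG20 (0.33 ± 0.23).

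Of 5 members that act on virus entry, traffic and release, 4 rose. IFITM1, an entry block at the cell surface, was at 20.8, 21.8 and 20.3 CPM with the control siRNA and 35.3, 36.8 and 35.6 CPM with the RB1 siRNA (log2 fold change 0.77 ± 0.10). BST2 (tetherin), which holds budding virus at the membrane, was at 30.9, 30.4 and 31.4 CPM with the control siRNA and 53.3, 50.3 and 48.6 CPM with the RB1 siRNA (0.72 ± 0.09). MX1, a GTPase that traps viral cores, was at 362, 367 and 376 CPM with the control siRNA and 477, 494 and 486 CPM with the RB1 siRNA (0.40 ± 0.03). IFITM1 and BST2 had the largest changes of the list after IFI27, and the groups stood well apart in all 3 genes. IFITM3 had a log2 fold change of 0.31 ± 0.06. MX2, the neighbour of MX1, stood at 5.72, 5.81 and 5.52 CPM with the control siRNA and 6.75, 6.11 and 5.64 CPM with the RB1 siRNA, which overlapped.

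ISG15 and its E2 enzyme rose, and the other 2 members listed with them did not pass the test. ISG15 was at 575, 527 and 537 CPM with the control siRNA and 729, 705 and 696 CPM with the RB1 siRNA, a log2 fold change of 0.38 ± 0.03. UBE2L6, the enzyme that carries ISG15 to its targets, was at 94, 91.8 and 88.8 CPM with the control siRNA and 123, 118 and 114 CPM with the RB1 siRNA (0.38 ± 0.05). USP18, which removes ISG15 and restrains the receptor, had a log2 fold change of 0.14 ± 0.10. HERC6 had 0.03 ± 0.04, at 252, 254 and 248 CPM with the control siRNA and 256, 249.7 and 264 CPM with the RB1 siRNA. HERC6 was among the more abundant members and still overlapped between groups.

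The remaining roles held both kinds. RSAD2 rose, from 85.5, 82.03 and 93.9 to 106, 106 and 110.5 CPM (0.30 ± 0.06 on the log2 scale), while CMPK2, a nucleotide kinase beside it on chromosome 2, was at 38.4, 43.5 and 29.2 CPM with the control siRNA and 36.7, 40.6 and 34.95 CPM with the RB1 siRNA, which overlapped. The ADP-ribosyl transferases PARP9 (0.17 ± 0.04) and PARP14 (0.17 ± 0.04) rose, whereas DTX3L, the ubiquitin ligase that pairs with PARP9, did not pass (0.08 ± 0.04). PARP14 was no longer called without control library 3 (0.15) or in DESeq2. SAMD9L was at 18.5, 20.2 and 19 CPM with the control siRNA and 25.7, 21.8 and 26.7 CPM with the RB1 siRNA (0.36 ± 0.11), and its call was lost without control library 1, 2 or 3 or RB1 siRNA library 1 or 3 (0.31 to 0.40) and without a count filter. SAMD9, SP110 and XAF1 were not called.

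IFI27, a membrane protein of mitochondria and the nuclear envelope, had the largest change of the list. It was at 39.1, 48.8 and 41.5 CPM with the control siRNA and 97.5, 101 and 102 CPM with the RB1 siRNA, a log2 fold change of 1.22 ± 0.07 (adjusted p = 1.27e-25, edgeR). Its RB1 siRNA values lay close together, and the lowest of them was far above the highest control. IFI44L was at 134, 131 and 134 CPM with the control siRNA and 199, 201 and 201 CPM with the RB1 siRNA (0.59 ± 0.04). Its neighbour IFI44 was at 94.5, 96.2 and 89.05 CPM with the control siRNA and 106, 108 and 108 CPM with the RB1 siRNA (0.20 ± 0.06), a call lost without control library 3 or RB1 siRNA library 2 (0.17 to 0.20) and in DESeq2. IFI6 was at 1835, 1786 and 1696 CPM with the control siRNA and 2301, 2424 and 2377 CPM with the RB1 siRNA (0.42 ± 0.03). LGALS3BP, a secreted glycoprotein, was at 326, 315 and 302 CPM with the control siRNA and 379.9, 383 and 386 CPM with the RB1 siRNA (0.28 ± 0.04). PLSCR1, a membrane scramblase, had a log2 fold change of 0.39 ± 0.09, which was lost without control library 1 (0.31). IFI35 was not called (0.30 ± 0.19).

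**Figure D2:**
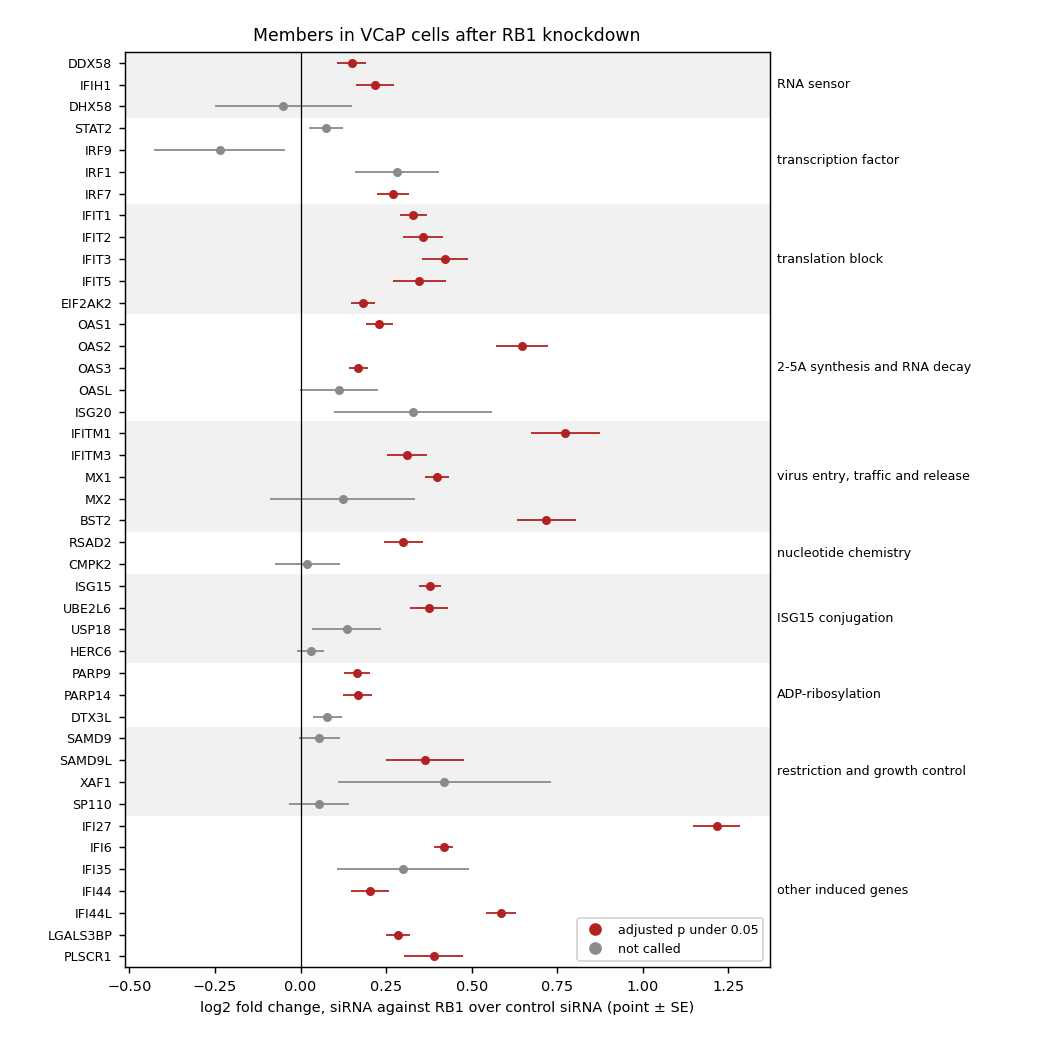
Log2 fold change of the 42 members tested in VCaP, RB1 siRNA over control siRNA, with standard error (3 libraries each), grouped by role; red points passed an adjusted p under 0.05. The 27 red points all lie to the right of 0, and IFI27 lies farthest at 1.22.

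Members with and without an ISRE match were both among those called. With a match, 18 of 21 tested rose, with a median log2 fold change of 0.33. Without one, 6 of 14 rose, with a median of 0.20. The group with a match includes IFI27, IFI6, ISG15 and BST2, whose letters are shown above, and the group without one includes OAS1, RSAD2 and UBE2L6. The promoters of OAS1, RSAD2 and DDX58 hold GAAA runs with a shorter gap between them, which the search did not count. A promoter without a match may thus still hold a related element. Median levels in VCaP controls were 91.2 CPM with a match and 61.1 CPM without, so the groups also differ in level. No test was made of this split.

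None of 21 interferon genes passed the count filter: IFNB1 was at 0.457, 0 and 0.442 CPM with the control siRNA and 0.141, 0.627 and 0.161 CPM with the RB1 siRNA. IFNL1, a type III interferon, was at 0.229, 0.697 and 1.10 CPM with the control siRNA and 2.25, 1.25 and 1.61 CPM with the RB1 siRNA. The 3 IFNL1 values with RB1 siRNA were above the 3 controls at a few counts each. Of the receptor chains 0 of 6 were called in edgeR, with 0 before adjustment (p under 0.05) either. Among the JAK-STAT genes, the kinase JAK1 fell (-0.22 ± 0.07), at 77.1, 80.6 and 80.7 CPM with the control siRNA and 62.5, 67.2 and 76.3 CPM with the RB1 siRNA. Of 15 further sensing genes, the helicase DDX60 (0.32 ± 0.04) and the RNA editor ADAR (0.09 ± 0.03) rose. Of 12 genes of double-stranded RNA processing and RNA interference, AGO4 rose (0.35 ± 0.07) and DICER1 fell (-0.37 ± 0.06). Of 27 other interferon-induced genes, 5 rose and 0 fell, where 2.96% of all genes rose and 2.65% fell. Before adjustment (p under 0.05), 12 of the 27 were higher and 1 lower, where 8.77% of all genes were higher and 8.82% lower. The 5 were led by the mono-ADP-ribosyl transferase PARP10 (0.44 ± 0.08) and the chemokine CXCL10 (0.55 ± 0.11). IFNAR1 stood at 219, 231 and 239.5 CPM with the control siRNA and 214, 226 and 216 CPM with the RB1 siRNA. IRF3 stood at 54.4, 51.1 and 61.9 CPM with the control siRNA and 58.8, 60.2 and 61.05 CPM with the RB1 siRNA. Neither was called.

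In C4-2-tet-shRB cells 3 days of doxycycline gave few calls, in both directions, and more members were lower than higher. The point estimate was positive in 15 members and negative in 21. Of 36 members tested, 2 rose and 4 fell (edgeR, adjusted over 18423 genes), where 4.25% of all genes rose and 3.59% fell. The members' median log2 fold change was -0.13, and that of all genes was -0.00. Every doxycycline library lay above every DMSO library in 5 members, where 28.2% of all genes did so, and below in 18, where 28.7% did. OAS2, MX2, RSAD2, SAMD9, SAMD9L, XAF1, TRIM22, IFI44 and IFI44L had too few counts.

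STAT2 was at 73.5 and 65.9 CPM without doxycycline and 47.8 and 46.02 CPM with it, a log2 fold change of -0.57 ± 0.08 (adjusted p = 0.000482, edgeR). The groups were well apart, and the call remained without any 1 of the 8 libraries (-0.65 to -0.49). IFITM3 was at 33.03 and 33.8 CPM without doxycycline and 26.05 and 26.4 CPM with it (-0.35 ± 0.10). MX1 was at 3.66 and 4.51 CPM without doxycycline and 2.39 and 2.72 CPM with it (-0.68 ± 0.20). DTX3L was at 54.1 and 48.3 CPM without doxycycline and 39.5 and 41.5 CPM with it (-0.34 ± 0.09). The groups did not overlap in any of these, but each of the 3 calls was lost without any 1 of the DMSO or doxycycline libraries, for IFITM3 at -0.37 to -0.34, for MX1 at -0.82 to -0.52 and for DTX3L at -0.42 to -0.25. DTX3L and MX1 were also lost without the first library given both agents, and MX1 without the second. DESeq2 called 2 members higher and 2 lower. IFITM3 was lost there (-0.35), and MX1 was given no adjusted p.

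The 2 members that rose were OAS3 and USP18. OAS3 was at 44.3 and 42.3 CPM without doxycycline and 59.3 and 56.5 CPM with it (0.42 ± 0.09 on the log2 scale). USP18 was at 11.4 and 11.3 CPM without doxycycline and 16.2 and 16.3 CPM with it (0.52 ± 0.11). Replicates of both genes lay close together and the groups apart. Both calls were lost without any 1 of the DMSO or doxycycline libraries (0.38 to 0.45 for OAS3 and 0.50 to 0.52 for USP18). The number that fell was 1 without any 1 of those 4 libraries, 2 without the first library given both agents and 8 without either library of GSK2879552 alone, which enters only the estimate of the spread. IFI27 stood at 1.86 and 0.953 CPM without doxycycline and 1.76 and 1.83 CPM with it (adjusted p = 0.534, edgeR). IFI6 stood at 12.3 and 12.01 CPM without doxycycline and 9.82 and 9.10 CPM with it (adjusted p = 0.0951, edgeR). Pathway genes called included the kinase TYK2 (-0.30 ± 0.08), the receptor chain IFNGR2 (-0.27 ± 0.08) and the nuclear body gene SP100 (-0.45 ± 0.11), all lower, and the repressor IRF2BP2 (0.33 ± 0.07), higher. JAK1 was at 8.76 and 8.58 CPM without doxycycline and 8.94 and 8.20 CPM with it and was not called.

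The change after RB1 depletion differed between the VCaP and C4-2 experiments in part of the list. Of 34 members tested in both tables, the VCaP effect exceeded the C4-2 effect in 12 and fell below in 0 (joint edgeR fit). Over all 45 members in that fit, 12 were higher and 0 lower, where 2.88% of 19976 genes were higher and 1.75% lower. These shares take in genes that were not tested in both tables. The median difference over the 34 was 0.32 on the log2 scale. In all 12 the C4-2 point estimate was negative. MX1 had a difference of 1.11 ± 0.17, ISG15 0.80 ± 0.11, IFI6 0.82 ± 0.11, IFITM3 0.70 ± 0.12 and STAT2 0.68 ± 0.10. These 5 calls remained without any 1 of the 14 libraries of the joint fit. That fit used 1 spread for both tables, with a coefficient of variation beyond counting error of 4.92%. Fitted alone, VCaP had 2.27% and C4-2 5.79%. For MX1, ISG15 and IFI6 the standard error of the difference was below that of the C4-2 effect alone (0.20, 0.12 and 0.13). For IFITM3 and STAT2 it was above (0.10 and 0.08). The joint fit thus understates the C4-2 spread for some genes, and all 12 calls rest on it. ISG15 in C4-2 was at 45.9 and 41.7 CPM without doxycycline and 34.2 and 33.1 CPM with it, lower in both libraries with doxycycline, although its own test gave an adjusted p of 0.056 (edgeR).

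The other 7 calls were each lost without at least 1 library. IFITM1 had 2.03 ± 0.45 at 1.10 and 0.572 CPM without doxycycline and 0.293 and 0.401 CPM with it in C4-2, which are low levels, and the call was lost without the first DMSO library (1.51). LGALS3BP had 0.54 ± 0.11 and DTX3L 0.45 ± 0.10, both lost without the same library (0.42 and 0.38). BST2 had 0.94 ± 0.23 and UBE2L6 0.93 ± 0.21, both lost without the second DMSO or the second doxycycline library (0.84 to 0.86 for BST2 and 0.68 to 0.87 for UBE2L6). PARP14 had 0.41 ± 0.09, lost without the second doxycycline library (0.35). DDX58 had 0.48 ± 0.14, and its call was lost without any 1 of 9 of the 14 libraries (0.44 to 0.52), with RLE factors (0.45), without a count filter (0.48) and in DESeq2 (0.45). IFI27, with the largest VCaP change, was not among the 12: its difference was 0.89 ± 0.30, with C4-2 values of 1.86 and 0.953 CPM without doxycycline and 1.76 and 1.83 CPM with it.

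**Figure D3:**
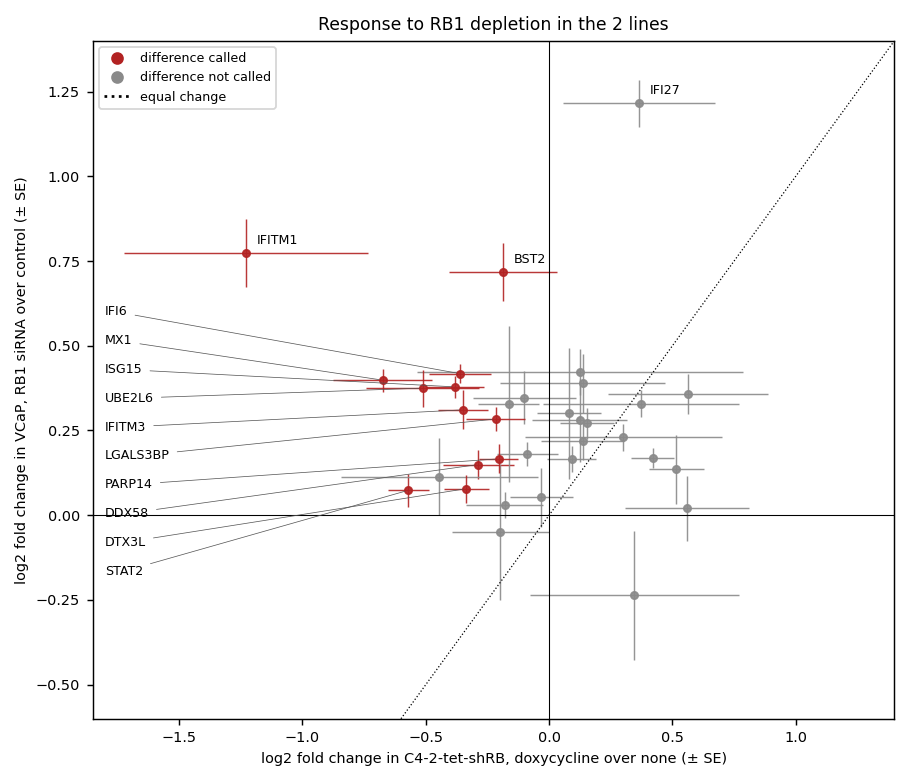
Log2 fold change with standard error of the 34 members tested in both tables, doxycycline over none in C4-2-tet-shRB (horizontal, 2 libraries each) against RB1 siRNA over control siRNA in VCaP (vertical, 3 libraries each). The 12 red points, whose difference passed an adjusted p under 0.05, lie above the dotted line of equal change and left of 0.

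IFI6 rose after GSK2879552 in C4-2 cells with and without doxycycline. Without doxycycline IFI6 was at 12.3 and 12.01 CPM with DMSO and 22.6 and 26.5 CPM with the inhibitor, a log2 fold change of 1.01 ± 0.12 (adjusted p = 0.000222, edgeR). With doxycycline it was at 9.82 and 9.10 CPM and 19.5 and 20.8 CPM (1.09 ± 0.12, adjusted p = 4.84e-05, edgeR). All 4 libraries with the inhibitor lay above all 4 without it. Both calls remained without any 1 of the 8 libraries, at 0.89 to 1.13 and 1.02 to 1.13.

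Few other members were called. Without doxycycline 2 of 36 members rose and 0 fell, where 0.619% of all genes rose and 0.0597% fell. Before adjustment (p under 0.05), 8 were higher, where 6.69% of all genes were, and 3 lower, where 5.34% were. DESeq2 called 1 higher and 0 lower. The second was IFIT1, at 1.03 and 0.635 CPM with DMSO and 3.40 and 2.44 CPM with the inhibitor (1.84 ± 0.33). Its groups did not overlap at these low levels, and the call was lost without either DMSO library (1.51 to 2.21). The number that rose was 4 or 5 without a library of GSK2879552 alone, a pair whose counts differed most of all pairs of the table. Its chi-square ratio over genes was 7.88, where 1 stands for counting error alone and the other pairs had 1.61 to 3.56. Without the second library of that pair 4 members fell.

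With doxycycline present 2 members rose and 1 fell, where 1.24% of all genes rose and 0.0923% fell. PARP14 was at 51.5 and 47 CPM with doxycycline and 70.5 and 70.2 CPM with both agents (0.52 ± 0.08). Without doxycycline PARP14 was at 55.2 and 58.1 CPM and, with the inhibitor, 73.4 and 69.2 CPM, with an adjusted p of 0.0635 in edgeR. The groups were apart in both settings. The call with doxycycline was lost without the second doxycycline library (0.44). USP18 was at 16.2 and 16.3 CPM with doxycycline and 11.2 and 11.4 CPM with both (-0.52 ± 0.11), so that the higher level seen with doxycycline alone was not seen with both agents. That call was lost without any 1 of the 4 libraries compared (-0.55 to -0.52) and in DESeq2. Without either library of GSK2879552 alone 5 members rose and 2 fell.

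The difference between the inhibitor's effect with and without doxycycline was called in 0 of 36 members in either direction by edgeR and by DESeq2, where 0% of all genes were higher and 0.0163% lower. Before adjustment (p under 0.05), 1 was higher, where 2.52% of all genes were, and 1 lower, where 2.25% were. Cells given both agents were also set against cells given the inhibitor alone, a comparison that shares libraries with those above. There, 2 members were higher and 3 lower, where 4.52% of all genes were higher and 3.2% lower. The members' median log2 fold change in this comparison was -0.15, and that of all genes was 0.01. OAS3 was at 36.9 and 41.6 CPM with the inhibitor and 60.3 and 54.6 CPM with both (0.56 ± 0.09), a call that remained without any 1 library. STAT2 was at 62.3 and 67.9 CPM with the inhibitor and 48.3 and 47.2 CPM with both (-0.45 ± 0.08). IFITM3 was at 35.2 and 39.8 CPM with the inhibitor and 28.98 and 24.4 CPM with both (-0.48 ± 0.10). IFITM2 was at 16.97 and 20.4 CPM with the inhibitor and 13.7 and 10.9 CPM with both (-0.59 ± 0.13). In none of these did the pairs overlap, but the 3 lower calls were lost without the second library given both agents (-0.44 for STAT2, -0.38 for IFITM3 and -0.46 for IFITM2). PLSCR1 was at 0.782 and 0.688 CPM with the inhibitor and 1.74 and 1.87 CPM with both (1.27 ± 0.33), lost without either library given both agents (1.21 to 1.32) and in a fit of only the 2 groups compared. The number lower was 8 or 6 without the first or second library of the inhibitor alone, and 3 members were then higher without the second.

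In LNCaP, with 1 library a condition and thus no test, IFI6 had the largest ratio of the 22 members with at least 100 counts in the pair. It was at 8.92 CPM with vehicle and 18.5 CPM after 1 µM GSK2879552 for 2 days, a ratio of 2.07 (95% interval 1.66 to 2.59). Intervals here are exact binomial ones and cover counting error only. Of these 22 members, 1 was 2-fold higher and 0 were 2-fold lower, where 1.46% of 11955 genes were higher and 1.32% lower. The members' median log2 ratio was 0.17, and that of all genes was -0.01. DDX58 was at 4.53 and 8.44 CPM, a ratio of 1.86 (95% interval 1.36 to 2.58). IRF1 had a ratio of 1.65 (95% interval 1.29 to 2.13) and PARP14 of 1.64 (95% interval 1.23 to 2.19). OAS3 went the other way, from 20.7 to 11.7 CPM, a ratio of 0.565 (95% interval 0.462 to 0.69), as did ISG15 with 0.793 (95% interval 0.707 to 0.889). IFIT1, at 1.15 and 2.66 CPM, fell short of the count minimum. Dose and time differ from those in C4-2 (10 µM, 24 h), so the values stand side by side without comparison. KDM1A, the inhibitor's target, had 82.5 and 86.7 CPM in LNCaP, and its level does not measure inhibition.

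**Figure D4:**
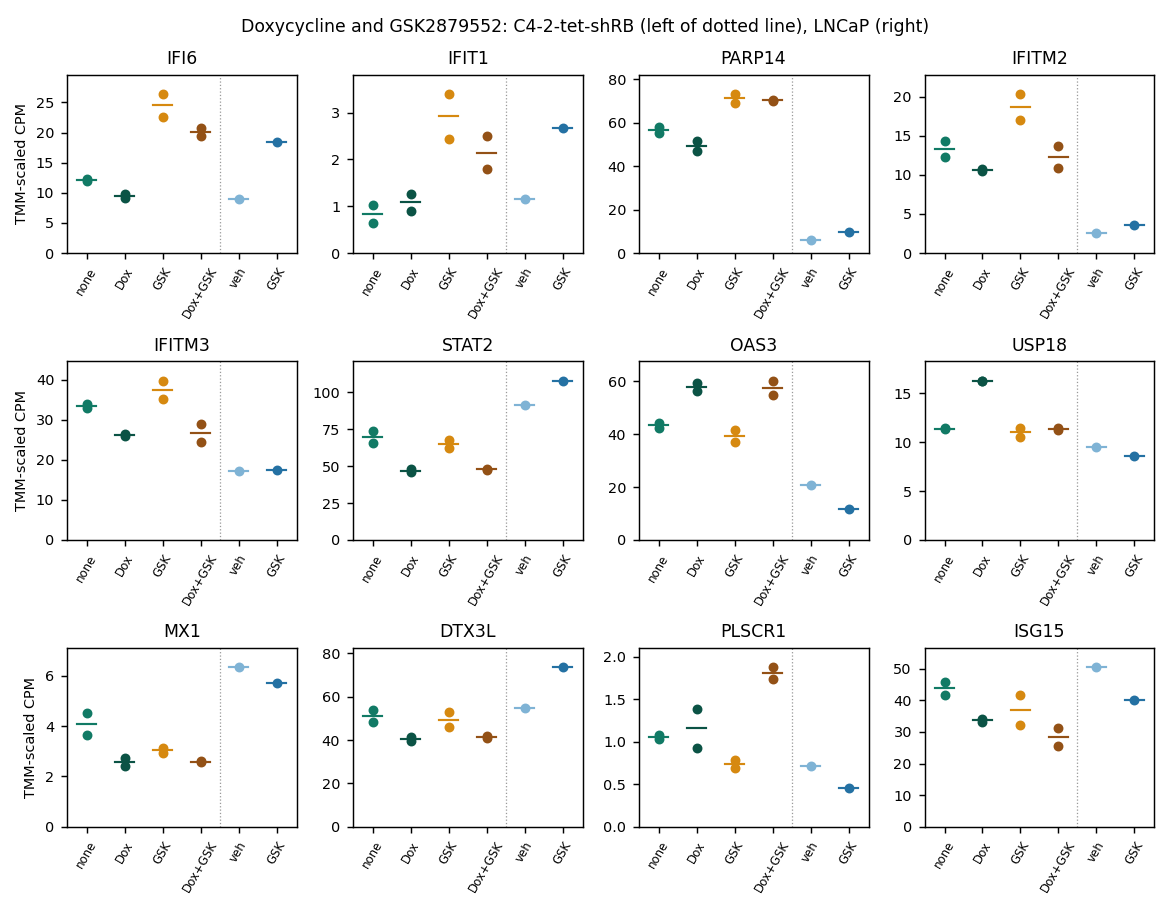
TMM-scaled CPM of 12 members in the 8 C4-2-tet-shRB libraries (2 per group, bars at the mean) and, right of the dotted line, the 2 LNCaP libraries. IFI6 is higher in all libraries with GSK2879552, STAT2 and IFITM3 are lower and OAS3 is higher in the libraries with doxycycline, and USP18 is high with doxycycline alone.

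Members changed in both directions with DHT. The 6 libraries were fitted with doxycycline level and DHT as additive terms, which left 2 residual degrees of freedom. Of 38 members tested, 13 rose and 3 fell, where 24.3% of 17300 genes rose and 22.8% fell. DESeq2 called 9 higher and 3 lower. The median log2 fold change was 0.10, and that of all genes was -0.02. OAS2, MX2, RSAD2, SAMD9L, XAF1, IFI27 and IFI44L had too few counts. Luminal markers summed to 6249 to 6706 CPM with vehicle and 12710.5 to 15505 CPM with DHT (KLK3, a known androgen target, is among them), and immune markers to 0.813 to 1.13 and 2.11 to 3.06 CPM. Fibroblast and endothelial markers summed to 12.9 to 15.4 CPM with vehicle and 15.9 to 17.6 CPM with DHT. The part of these 3 marker lists in the members' changes was not tested.

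ISG20 had the largest rise. It was at 11.8, 10.7 and 12.01 CPM with vehicle and 31.5, 28.1 and 30.99 CPM with DHT after 0, 3 and 30 days of doxycycline, a log2 fold change of 1.39 ± 0.08 (adjusted p = 1.06e-13, edgeR). Every DHT library was above every vehicle library, and the 3 ratios, 2.66, 2.64 and 2.58, were almost the same at each doxycycline level. ISG20 was the 1 member 2-fold higher at each single level, of 22 with enough counts, where 3.92%, 3.34% and 3.24% of genes were 2-fold higher at 0, 3 and 30 days. No member was 2-fold lower, where 3.66%, 1.71% and 1.79% of genes were. ISG20 was lower in VCaP than in C4-2 and was not called after RB1 depletion in either line.

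Of the transcription factors 2 of 4 rose with DHT, and of ISG15 and the members listed with it 2 of 4, where 24.3% of all genes rose. IRF7 was at 21.9, 19.9 and 22.98 CPM with vehicle and 32.5, 35.1 and 32.7 CPM with DHT (0.63 ± 0.08). STAT2 was at 46.1, 42.4 and 48.6 CPM with vehicle and 61.3, 62.5 and 60.4 CPM with DHT (0.43 ± 0.06). ISG15 was at 32.7, 29.5 and 28.8 CPM with vehicle and 53.5, 44.3 and 39.6 CPM with DHT (0.59 ± 0.07), and HERC6 at 12.1, 10.8 and 10.4 CPM with vehicle and 18.9, 21.1 and 17.4 CPM with DHT (0.79 ± 0.10). In these 4 genes no DHT value fell among the vehicle values, and none of the calls was lost without any 1 library. IFITM2 (0.50 ± 0.12) and IFITM3 (0.35 ± 0.09) rose as well.

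The restriction factor SAMD9 was at 2.94, 3.69 and 5.11 CPM with vehicle and 4.59, 6.95 and 9.94 CPM with DHT (0.87 ± 0.15), and IFI44 at 1.06, 1.17 and 1.80 CPM with vehicle and 2.04, 2.80 and 3.33 CPM with DHT (1.02 ± 0.24). SAMD9 varied with doxycycline time as well as DHT, so its groups overlapped while each DHT value exceeded the vehicle value of the same doxycycline level. SP110 (0.32 ± 0.11), PARP9 (0.17 ± 0.07), PARP14 (0.15 ± 0.06) and EPSTI1 (0.91 ± 0.35) were also called. The PARP9 call was lost without any 1 of the 6 libraries (0.16 to 0.20), and those of PARP14 (0.10 to 0.16) and EPSTI1 (0.82 to 0.92) without any 1 of the 4 libraries with doxycycline. SP110 was lost without either library of 3 days (0.22 in each case). These 4 calls were also lost in DESeq2, and those of PARP9 and PARP14 without a count filter.

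CMPK2, OAS3 and IFIT5 fell. CMPK2 was at 3.57, 3.57 and 4.35 CPM with vehicle and 0.874, 1.22 and 1.53 CPM with DHT (-1.66 ± 0.23). OAS3 was at 36.2, 41.04 and 44.98 CPM with vehicle and 20.7, 35.3 and 30.1 CPM with DHT (-0.52 ± 0.08), and IFIT5 at 8.64, 10.9 and 11.5 CPM with vehicle and 5.17, 6.02 and 8.41 CPM with DHT (-0.67 ± 0.13). Every CMPK2 value with DHT was below every vehicle value, and so was every value of OAS3 and IFIT5. The number that fell was 5 without either library of 30 days. IFIT1 (-0.57 ± 0.29), IFITM1 (-0.96 ± 0.44) and IRF9 (-0.74 ± 0.66) had low counts and were not called, and IFI6, which rose with GSK2879552, stood at 13.6, 12.2 and 13.99 CPM with vehicle and 11.4, 12.6 and 16.7 CPM with DHT.

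**Figure D5:**
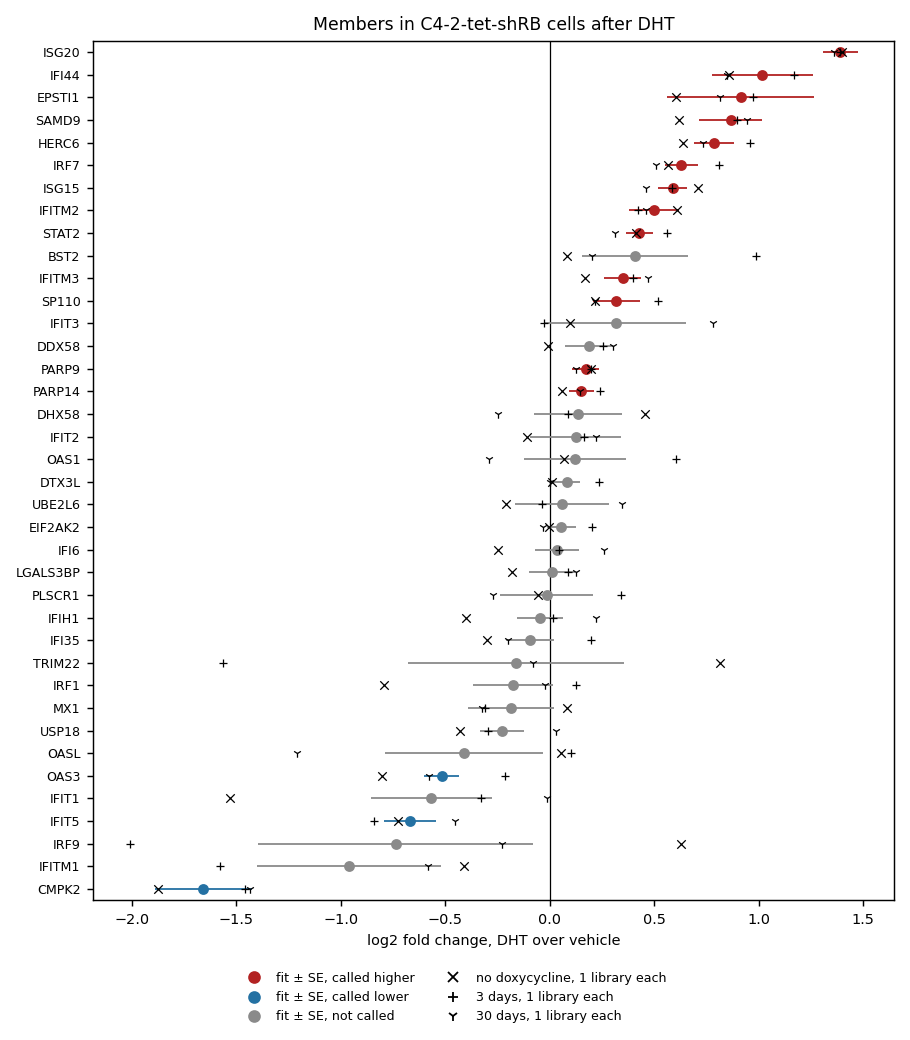
Log2 fold change of the 38 members tested in C4-2-tet-shRB, DHT over vehicle, from the additive fit (circles with standard error, 6 libraries) and at each doxycycline level alone (black marks, 1 library each, no error). ISG20 is the highest at 1.39 with its 3 marks close together, CMPK2 is the lowest at -1.66, and the marks of low-count members such as TRIM22 and IRF9 spread widely.

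The wider pathway is read against the 24.3% of all genes that rose and the 22.8% that fell with DHT. Of it, 4 of 5 receptor chains rose, among them IFNAR1 (0.45 ± 0.06) and IL10RB (0.57 ± 0.10), and so did 5 of 9 JAK-STAT genes, led by STAT5A (0.89 ± 0.12). The STING gene TMEM173 rose from 0.626, 0.782 and 0.696 CPM to 3.86, 4.09 and 3.82 CPM (2.47 ± 0.25), and the cytokine signalling brake SOCS2 by 2.42. IRF3 rose by 0.28, whereas JAK1, TYK2 and IFNAR2 were not called. Of 27 further interferon-induced genes, 10 rose and 5 fell. The GTPase GBP2 (2.02 ± 0.15) and the ISG15 ligase HERC5 (1.59 ± 0.13) rose, as did GBP1, which had 0, 0.223 and 0.174 CPM with vehicle and 1.31, 1.79 and 1.88 CPM with DHT; the regulator NLRC5 fell (-1.05 ± 0.26).

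Doxycycline for 3 days in the DHT experiment gave 0 calls in either direction among 38 members in edgeR and in DESeq2, where 0.272% of all genes rose and 0.197% fell. Before adjustment (p under 0.05), 6 were higher, where 5.47% of all genes were, and 1 lower, where 4.5% were. Up to 4 members rose without the vehicle library of 0 days, and 1 then fell, while 1 rose without the 3-day vehicle library or without either 30-day library. STAT2, lower with doxycycline in the other experiment, was at 46.1 and 61.3 CPM without doxycycline and 42.4 and 62.5 CPM after 3 days (vehicle and DHT). After 30 days 6 members were higher and 1 lower than without doxycycline, where 2.51% of all genes were higher and 1.52% lower.

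SAMD9 was at 2.94 and 4.59 CPM without doxycycline and 5.11 and 9.94 CPM after 30 days (vehicle and DHT each, 0.98 ± 0.19 on the log2 scale). PARP14 was at 66.6 and 69.4 CPM without doxycycline and 81.8 and 90.5 CPM after 30 days (0.34 ± 0.07), and OAS3 at 36.2 and 20.7 CPM without doxycycline and 44.98 and 30.1 CPM after 30 days (0.40 ± 0.10). IFIT5 (0.53 ± 0.15), EIF2AK2 (0.31 ± 0.09) and DTX3L (0.29 ± 0.08) were also higher. ISG15 was lower, at 32.7 and 53.5 CPM without doxycycline and 28.8 and 39.6 CPM after 30 days (-0.32 ± 0.09). For each of these genes the 30-day value exceeded, or for ISG15 fell below, the value without doxycycline in vehicle and in DHT alike. DESeq2 called 0 members in either direction and gave no adjusted p for IFIT5 and SAMD9. None of the 7 calls held with each library left out in turn. SAMD9 was lost without the DHT library of 0 or of 30 days (0.80 to 0.88), as was ISG15 (-0.22 in each case). PARP14 was lost without either 30-day library (0.34 in each case), OAS3 without the DHT library of 0 days or the vehicle library of 30 days (0.23 to 0.35), and IFIT5 without either library of 0 days or the DHT library of 30 days (0.39 to 0.59). EIF2AK2 (0.24 to 0.38) and DTX3L (0.22 to 0.35) were lost without the DHT library of 0 days or either of 30 days. Without the 0-day or the 30-day DHT library 1 member was higher and 0 lower, and without the 30-day vehicle library 2 were higher. Between 3 and 30 days 0 members were called in either direction by edgeR and DESeq2, where 0.254% of all genes were higher and 0.0694% lower. Before adjustment (p under 0.05), 3 were higher, where 4.16% of all genes were, and 1 lower, where 3.4% were. These comparisons share the libraries without doxycycline.

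DHX58, IRF9, IRF1, OASL, MX2, XAF1, TRIM22 and IFI35 passed the adjusted threshold in none of the comparisons. OAS3 was called in 5 comparisons, higher after RB1 siRNA in VCaP, with doxycycline in C4-2 with and without the inhibitor and after 30 days, and lower with DHT.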

How the data were processed

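RNA from VCaP, C4-2-tet-shRB and LNCaP cells was measured by RNA-seq in 22 libraries of 14 groups. The deposited values are gene counts in 4 tables, with no normalization. Per the submitters' processing notes, the authors' tools were featureCounts 1.6.4, STAR 2.7.2 and FastQC 0.11.9, and the build hg19 (GRCh37). How strand and multi-mapped reads were treated, and with which annotation, is not given in the sources used here. Per the labels' protocols, a stranded mRNA kit served VCaP and the first C4-2 experiment and a total RNA kit the other 2 tables, so levels set across tables also differ by kit. All 30 count columns matched a sample. Each library of the DHT and LNCaP tables was deposited as 2 numbered replicates that, per the labels' descriptions, share a library name and index and differ in lane. Their counts agreed within counting error (chi-square ratio 0.983 to 1.01), so each pair was summed and counted as 1 sample.

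Each table was fitted whole with edgeR 4.0.16 (limma 3.58.1, R 4.3.3): filterByExpr, TMM factors and the quasi-likelihood F test, with Benjamini-Hochberg adjustment at 0.05. All 8 libraries of the first C4-2 experiment shared 1 fit. The difference between lines came from a joint fit of 14 libraries. Log2 fold changes carry the standard error of the fit. Single-library pairs were given exact binomial 95% intervals, where both libraries together had 100 counts or more. Alternatives were RLE factors, no count filter, DESeq2 1.42.0, a replicate block, a fit of the 2 groups compared, each library left out, a minimum of 20 counts and another prior count. A crossed replicate block was added after the data were seen. Scripts were tested on simulated data.

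Members and lists were chosen with earlier results of these data known. All 45 members are accounted for by role. Genes given values were members called in a comparison and the 2 most abundant of each role, up to 3 called genes a direction of each pathway list with its most abundant genes, and JAK1, IRF3, IFNAR1, IFNAR2 and TYK2; members outside these rules are given where groups are set side by side. Promoters came from RefSeq (GRCh38.p14) and exon lengths from GENCODE (GRCh38). These builds differ from that of the counts, so levels per length are approximate. Some genes of the pathway lists are not reported here.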

Additional observations from a re-analysis of the deposited data

Results flagged for a closer look

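A test of the difference between the effect of RB1 siRNA in VCaP and of doxycycline in C4-2-tet-shRB (joint edgeR fit, adjusted p under 0.05) marked 12 members, with values on the log2 scale. The difference was 0.48 for DDX58, 0.68 for STAT2, 2.03 for IFITM1, 0.70 for IFITM3, 1.11 for MX1 and 0.94 for BST2. It was 0.80 for ISG15, 0.93 for UBE2L6, 0.41 for PARP14, 0.45 for DTX3L, 0.82 for IFI6 and 0.54 for LGALS3BP. The DDX58 call was lost with RLE factors (0.45), without a count filter (0.48) and in DESeq2 (0.45). The joint fit used 1 spread for both tables, which understates that of C4-2 for some genes. The lines also differ in how RB1 was depleted, in transfection and in medium, which cannot be told apart from line. Groups held 3 libraries or fewer, so single outlying libraries were not tested for.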

How the results depend on the processing

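Of 78 calls of single members, none reversed direction under an alternative, and 773 of 900 values stayed on the same side of the threshold while 127 lost it; calls of pathway genes were not run under the alternatives. RB1 siRNA in VCaP kept 23 to 26 higher members when 1 library was left out, and 0 lower. Doxycycline in C4-2 gave 0 to 2 higher and 1 to 8 lower, and GSK2879552 1 to 5 and 0 to 4. With doxycycline, the inhibitor gave 1 to 5 higher and 0 to 2 lower. Both agents against the inhibitor gave 1 to 3 and 0 to 8. DHT gave 9 to 12 and 3 to 5, doxycycline for 3 days 0 to 4 and 0 to 1, and for 30 days 1 to 6 and 0 to 1. The difference between lines gave 8 to 14 and 0 to 1, and the interaction and the step from 3 to 30 days 0 to 0. DESeq2 moved the lower count with doxycycline to 2, the higher count with GSK2879552 to 1, the lower count of the inhibitor with doxycycline to 0, the higher count of both agents against the inhibitor to 1, and both 30-day counts to 0. Without a count filter the inhibitor gave 4 higher, the inhibitor with doxycycline 5 higher and 2 lower, and 3 days of doxycycline 1 higher. Fitting only the 2 groups compared gave 8 lower with doxycycline, 5 higher and 3 lower for the inhibitor with doxycycline, and 1 higher for both agents against the inhibitor. In LNCaP a minimum of 20 counts gave 6 members 2-fold higher. Replicate numbers did not pair the libraries (correlation of same-numbered deviations 0.0103 to 0.0284 in VCaP and -0.125 to 0.0353 in C4-2). With a replicate block, 27 members rose and 0 fell in VCaP, 2 rose and 1 (STAT2) fell with doxycycline, 2 rose and 0 fell with the inhibitor, 2 rose and 0 fell with the inhibitor after doxycycline, and 2 were higher and 3 lower for both agents against the inhibitor; the difference between lines was called in 11 and 0. IFITM3, MX1 and DTX3L with doxycycline, USP18 for the inhibitor after doxycycline and DDX58 for the difference between lines were not called with the block. With the pairing crossed, an alternative chosen after seeing the data, both agents against the inhibitor gave 8 lower. Over all genes, calls moved from 790 to 341 (DESeq2) in VCaP, from 1444 to 908 (block) and 3540 (only 2 groups) with doxycycline, and from 125 to 330 (no filter) with the inhibitor. They moved from 246 to 161 (block), 406 (no filter) and 1173 (2 groups) for the inhibitor with doxycycline, and from 1422 to 903 (block), 477 (2 groups) and 3194 (crossed) for both agents against the inhibitor. They moved from 3 to 39 (no filter) and 7 (DESeq2) for the interaction, from 8149 to 5323 (DESeq2) with DHT, from 81 to 222 (no filter) and 26 (DESeq2) after 3 days, from 697 to 164 (DESeq2) after 30 days, from 56 to 108 (no filter) and 16 (DESeq2) from 3 to 30 days, and from 925 to 560 (block) for the difference between lines. The cause was not tested. Where a library left out leaves 1 in its group, that one is assumed to vary like the other groups of the fit. VCaP libraries are the shallowest, and members near 1 CPM in C4-2 and LNCaP rest on few counts.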
